A study of Homo sapiens with 12 samples.

Results

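The EGF family ligands epiregulin (EREG), amphiregulin (AREG), betacellulin (BTC), heparin-binding EGF-like growth factor (HBEGF) and transforming growth factor alpha (TGFA) were examined together with the receptors EGFR, ERBB2, ERBB3 and ERBB4 and the receptor inhibitor ERRFI1. These 10 genes, of 26485 in the count table, were taken by symbol from a list of ERBB ligands, receptors and a feedback inhibitor chosen by the EREG counts, which were higher in all 3 ZHX3-labelled lines than in the control line. Comparisons with the control line are therefore given for the 10 genes as a description. Genes past the threshold are counted there, but no p-values are printed. RNA came from HepG2, an established human hepatoma line. Stable lines Z2, Z5 and Z9 had been transfected with CRISPR vectors labelled sgZHX3-2, sgZHX3-5 and sgZHX3-9 and carry the genotype label ZHX3-depleted, and the control line Empty had received the empty vector and carries the label WT. Each of the 4 lines was made by lipofection and blasticidin selection and was seeded into 3 wells, a to c. All p-values therefore reflect only how far wells of the same line scatter. With 1 control line, an effect of the vectors and a difference in the history of the Empty line cannot be told apart. Whether the lines are clones or pools is not given in the sources used here.

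ERBB ligands are made as membrane-anchored precursors that metalloproteases of the ADAM family cut free. They bind EGFR or ERBB4 (HBEGF, BTC and EREG bind either, while AREG and TGFA bind EGFR), ERBB2 binds no ligand and serves as the preferred partner, and ERBB3 binds neuregulins but has an impaired kinase and signals through its partners. Active receptors drive the RAS-ERK and PI3K-AKT cascades, and induced proteins such as ERRFI1 (also called MIG6), Sprouty proteins and dual-specificity phosphatases restrain them. In hepatocytes EGFR and its ligands are known for their role in regeneration.

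Library totals ranged from 50864744 to 65428204 counts, and 15289 genes were tested. All 10 hepatocyte and hepatoma markers were detected in every well, with albumin (ALB) between 10800 and 18400 CPM (counts scaled to a library total of 1000000). Of 9 markers of other cell types, PTPRC, the pan-leukocyte marker, had at most 2 counts in a well and KRT7 at most 8, whereas KRT19 (360 to 585 CPM), CD68, PDGFRB and PECAM1 were also detected. The summed CPM of these 9 markers was 550 to 685.7 in Z2, 534.1 to 623 in Z5, 446.3 to 594.5 in Z9 and 492.3 to 576.5 in Empty. The summed CPM of the hepatocyte markers was 50410 to 54950 in Z2, 52650 to 53080 in Z5, 49300 to 50350 in Z9 and 55140 to 56220 in Empty. Every labelled well thus lay below every Empty well in the sum, which does not show that each marker was lower. ALB averaged 11520, 11480 and 11970 CPM in Z2, Z5 and Z9 and 17530 in Empty. AFP averaged 12440, 11760 and 10110 CPM in Z2, Z5 and Z9 and 10920 in Empty. The part of these differences in the results was not tested. ZHX3 mRNA was 34.5 ± 0.620 CPM in Z2, 32.9 ± 0.505 in Z5, 34.3 ± 0.713 in Z9 and 33.0 ± 0.421 in Empty (SD, n = 3 wells each), so the mRNA level does not check the label.

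EREG, AREG and BTC are neighbours on chromosome 4 and were read very differently. EREG lies from 74365145 to 74388749 and AREG from 74445136 to 74455005, both on the plus strand and 56.4 kb apart (GRCh38.p14, RefSeq). BTC lies 289.8 kb beyond AREG, from 74744759 to 74794523 on the minus strand, and the ligand gene EPGN lies 48.4 kb before EREG. The promoter windows of the 3 listed neighbours, 250 bases before to 50 bases after the annotated start (GRCh38.p14), are shown because EREG and AREG were higher together while BTC stayed almost unread. Capitals mark matches, on either strand and without overlaps between motifs, to CCAAT (the box that NF-Y binds), TATAAA (the TATA box), TGACGTCA (the cyclic AMP response element), CATTCC (the TEAD site) and TGANTCA (the AP-1 site).
EREG (chr4:74364895-74365194, plus strand): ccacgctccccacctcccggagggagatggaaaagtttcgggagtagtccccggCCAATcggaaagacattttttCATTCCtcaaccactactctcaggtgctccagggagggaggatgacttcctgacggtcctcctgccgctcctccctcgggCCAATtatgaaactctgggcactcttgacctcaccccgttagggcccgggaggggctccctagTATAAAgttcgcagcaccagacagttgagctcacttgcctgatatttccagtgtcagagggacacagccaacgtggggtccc
AREG (chr4:74444886-74445185, plus strand): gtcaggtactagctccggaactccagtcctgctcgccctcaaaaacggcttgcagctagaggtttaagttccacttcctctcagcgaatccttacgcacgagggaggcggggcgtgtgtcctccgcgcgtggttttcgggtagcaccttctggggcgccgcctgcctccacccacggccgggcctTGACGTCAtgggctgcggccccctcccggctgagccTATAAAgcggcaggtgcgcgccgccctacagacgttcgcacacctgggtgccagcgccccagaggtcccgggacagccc
BTC (chr4:74794474-74794773, minus strand): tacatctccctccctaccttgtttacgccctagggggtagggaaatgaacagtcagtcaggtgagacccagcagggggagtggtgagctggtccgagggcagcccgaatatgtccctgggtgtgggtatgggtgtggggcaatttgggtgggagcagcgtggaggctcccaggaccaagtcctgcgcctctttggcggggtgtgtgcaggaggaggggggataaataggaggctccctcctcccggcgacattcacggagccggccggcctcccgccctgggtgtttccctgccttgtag
The EREG window held CCAAT at -196 and -95, CATTCC at -175 and TATAAA at -32, counted from the annotated start to the first base of the match. The AREG window held TGACGTCA at -65 and TATAAA at -29, and none of the searched letters was in the BTC window. Among all 35116 promoter windows of this length, 34.6% held CCAAT, 11.5% TATAAA, 1.85% TGACGTCA, 14% CATTCC and 7.71% TGANTCA. Of the 9 listed genes with a promoter window in the table, EREG, ERBB2 and ERRFI1 held CCAAT, and EREG and AREG held TATAAA. These matches describe the letters and show no binding.

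EREG, the ligand that prompted the choice, had a low level with a clear gap between the lines. It had 163, 228 and 152 counts in Z2 wells a, b and c, 167, 147 and 157 in Z5, 150, 163 and 213 in Z9, and 32, 41 and 33 in Empty. In CPM this was 3.06, 4.38 and 2.86 in Z2, 2.88, 2.82 and 2.75 in Z5, 2.77, 2.82 and 3.85 in Z9, and 0.628, 0.711 and 0.505 in Empty. All 9 labelled wells lay above all 3 Empty wells, and the wells Z2 b and Z9 c stood above the other 7. The means were 3.43 ± 0.826 CPM in Z2, 2.82 ± 0.0617 in Z5, 3.14 ± 0.610 in Z9 and 0.615 ± 0.103 in Empty (SD, n = 3 each), so the order was Z2, Z9, Z5 and Empty, with wells of the first 3 overlapping. The log2 fold changes against Empty were 2.49 ± 0.21 in Z2, 2.20 ± 0.21 in Z5 and 2.36 ± 0.21 in Z9 (SE), or 5.60-fold, 4.60-fold and 5.13-fold. Of 15289 tested genes, 26 had a larger log2 fold change than EREG in the mean of the 3 lines (2.35 ± 0.19). Bulk RNA cannot tell more EREG mRNA per cell from more cells that make it.

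AREG, the adjacent ligand gene, was more abundant per exon length and also separated the lines. Its level was 14.1, 11.8 and 13.4 CPM per kb in Z2, Z5 and Z9 and 5.59 in Empty, while that of EREG was 0.601, 0.493 and 0.550 in Z2, Z5 and Z9 and 0.108 in Empty. It had 22.2, 24.8 and 22.7 CPM in Z2 wells a, b and c, 19.2, 17.6 and 21.4 in Z5, 19.6, 22.9 and 23.9 in Z9, and 8.28, 10.4 and 8.95 in Empty. The lowest labelled well, Z5 b, lay above the highest Empty well. The log2 fold changes were 1.33 ± 0.099 in Z2, 1.07 ± 0.099 in Z5 and 1.26 ± 0.099 in Z9 (SE), or 2.52-fold, 2.10-fold and 2.40-fold, and 203 of 15289 genes had a larger one in the mean of the 3 lines. EREG and AREG were not higher in proportion. For each 100 AREG counts there were 14.7 ± 2.62 EREG counts in Z2, 14.6 ± 1.64 in Z5 and 14.2 ± 1.92 in Z9, against 6.69 ± 0.974 in Empty (SD, n = 3 each). The lowest labelled well had 12.3 EREG counts for each 100 of AREG and the highest Empty well 7.58.

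**Figure D1:**
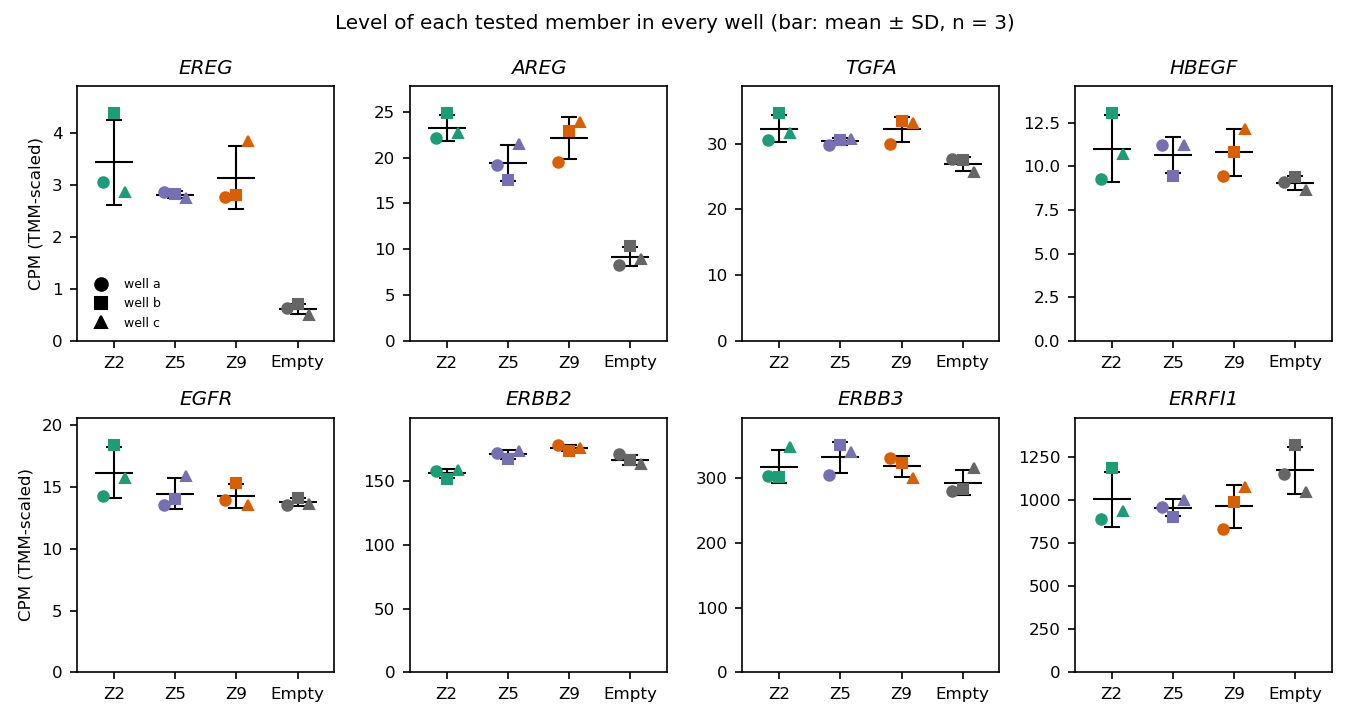
Level in CPM (linear axes from 0) of the 8 listed genes that passed the filter on low counts, in each well of Z2, Z5, Z9 and Empty. Symbols mark wells a to c, and bars show the mean ± SD of 3 wells. EREG and AREG wells of Z2, Z5 and Z9 lie far above those of Empty, and TGFA wells slightly above. For the other 5 genes the 9 labelled wells as a whole overlap those of Empty, although single lines separate from Empty for ERBB2 (Z2 and Z9), EGFR (Z2), HBEGF (Z5 and Z9) and ERRFI1 (Z5).

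TGFA, a ligand of EGFR alone, showed a small gap. Its CPM were 30.6, 34.6 and 31.7 in Z2, 29.8, 30.6 and 30.7 in Z5, 30.0, 33.4 and 33.2 in Z9, and 27.6, 27.5 and 25.7 in Empty. Here too the 9 labelled wells lay above the 3 Empty wells, by 1.13-fold to 1.20-fold in the line means (log2 fold changes 0.26 ± 0.063 in Z2, 0.17 ± 0.063 in Z5 and 0.26 ± 0.063 in Z9, SE). Of the 8 tested genes of the list, EREG, AREG and TGFA were the 3 whose 9 labelled wells all lay above the Empty wells, a pattern that 8.83% of all tested genes showed. The list was chosen because EREG was higher in all 3 lines, so nothing is read from this count. HBEGF, which also serves as the diphtheria toxin receptor, averaged 11.005 ± 1.90 CPM in Z2, 10.6 ± 1.02 in Z5, 10.8 ± 1.33 in Z9 and 9.03 ± 0.387 in Empty (SD, n = 3 each). Its CPM were 9.26, 13.0 and 10.7 in Z2, 11.2, 9.46 and 11.2 in Z5, 9.46, 10.8 and 12.1 in Z9, and 9.08, 9.39 and 8.62 in Empty. All HBEGF wells of Z5 and Z9 lay above the Empty wells, and in Z2 well a lay below Empty b. Its log2 fold changes (± SE) were 0.28 ± 0.12 for Z2, 0.24 ± 0.12 for Z5 and 0.26 ± 0.12 for Z9.

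BTC, and the ligand genes of the family outside the list other than NRG4, had few reads. BTC had 3 counts over the Z2 wells, 0 over the Z5 wells, 2 over the Z9 wells and 4 over the Empty wells, and 0 of a Z5 total of 167243466 scaled counts allows up to 0.0179 CPM. Intervals and limits of this kind cover counting error only. EPGN, which encodes epigen, had 0, 4, 5 and 2 counts over the wells of Z2, Z5, Z9 and Empty, and EGF had 2, 6, 0 and 11. The neuregulins bind ERBB4, and only some of them bind ERBB3. NRG1 had 4, 13, 6 and 18 counts over the wells of Z2, Z5, Z9 and Empty, and NRG2 had 0, 3, 0 and 1. NRG3 had none in any well. NRG4 passed the filter at 0.346 ± 0.173 CPM in Z2, 0.615 ± 0.195 in Z5, 0.486 ± 0.107 in Z9 and 0.461 ± 0.145 in Empty (SD, n = 3 each), with a log2 fold change of 0.011 ± 0.31 in the mean of the 3 lines (SE, edgeR adjusted p = 0.983).

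Per kilobase of exon, the mixture of ligand mRNAs differed between lines. The summed level of the 5 listed ligands was 24.9 ± 2.03 CPM per kb in Z2, 21.9 ± 1.48 in Z5, 24.0 ± 2.25 in Z9 and 14.1 ± 0.852 in Empty (SD, n = 3 each). AREG made up 56.8% ± 1.17 of it in Z2, 53.6% ± 1.78 in Z5, 55.8% ± 0.595 in Z9 and 39.5% ± 2.61 in Empty. TGFA made up 26.2% ± 0.428, 28.0% ± 1.91, 27.1% ± 1.13 and 38.5% ± 1.95 in the same lines, so that AREG and TGFA were within their spread of each other in Empty and AREG led in the other lines. HBEGF held 14.6% to 16.1% in the labelled lines and 21.2% ± 0.683 in Empty. EREG held 2.40% ± 0.387 in Z2, 2.26% ± 0.182 in Z5, 2.28% ± 0.306 in Z9 and 0.759% ± 0.0929 in Empty, the smallest share of the 4 ligands that passed the filter in every line.

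The receptors differed little. ERBB3 was the most abundant per length, with 35.2 ± 2.85 CPM per kb in Z2, 36.8 ± 2.68 in Z5, 35.2 ± 1.78 in Z9 and 32.4 ± 2.16 in Empty (SD, n = 3 each). ERBB2 followed with 15.1 ± 0.366, 16.5 ± 0.345, 17.03 ± 0.236 and 16.1 ± 0.369 CPM per kb in the same lines, and EGFR, the receptor of AREG and TGFA, with 1.29 ± 0.166, 1.16 ± 0.0981, 1.14 ± 0.0760 and 1.10 ± 0.0253. EGFR thus made up 2.12% to 2.51% of the summed level of the 4 receptors in the line means. ERBB4 had 1, 2, 3 and 0 counts over the wells of Z2, Z5, Z9 and Empty, at or under the limit of 3 counts, so no fold is given.

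**Figure D2:**
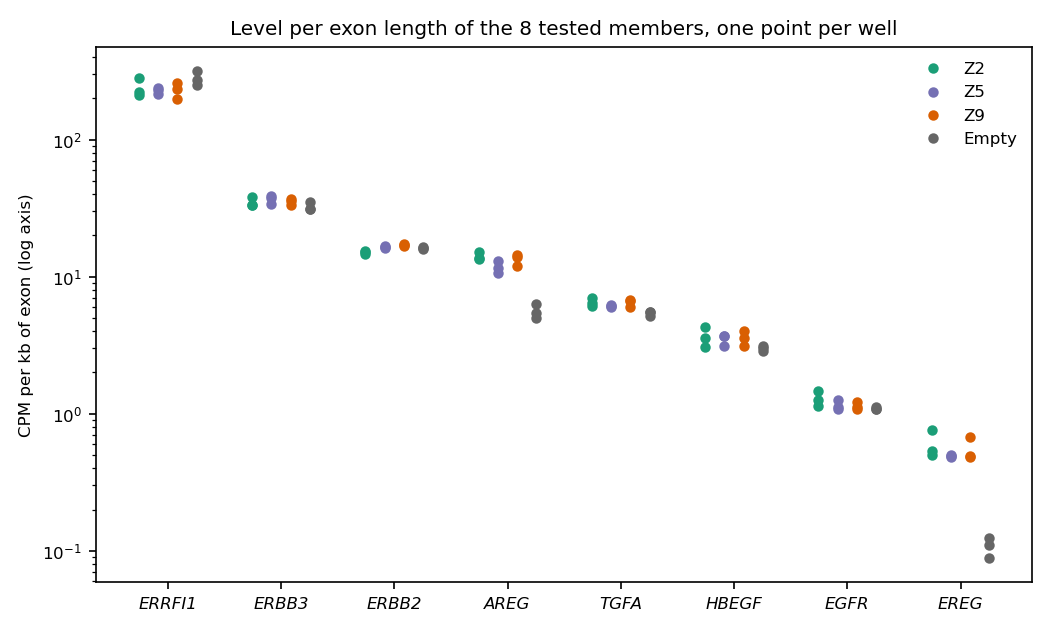
Level in CPM per kb of exon (log axis) of 8 listed genes in each well of Z2, Z5, Z9 and Empty, ordered by their mean in Empty. ERRFI1 lies far above all other genes, and AREG lies near TGFA in Empty but near ERBB2 in Z2, Z5 and Z9. BTC and ERBB4 had at most 4 counts over the wells of a line and are left out.

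Against Empty, ERBB3 had 304, 303 and 348 CPM in Z2, 305, 352 and 340 in Z5, 332, 323 and 301 in Z9, and 280, 284 and 316 in Empty, with log2 fold changes of 0.12 ± 0.070, 0.18 ± 0.070 and 0.12 ± 0.070 (SE). Labelled and Empty wells overlapped because Empty c lay above Z2 a, Z2 b, Z5 a and Z9 c. EGFR had 14.3, 18.4 and 15.8 CPM in Z2, 13.5, 14.1 and 15.9 in Z5, 14.0, 15.4 and 13.5 in Z9, and 13.5, 14.1 and 13.7 in Empty, with a log2 fold change of 0.23 ± 0.091 (SE) in Z2. All EGFR wells of Z2 lay above the Empty wells, and those of Z5 and Z9 overlapped them. ERBB2 had 158, 152 and 158 CPM in Z2, 171, 167 and 174 in Z5, 178, 173 and 176 in Z9, and 171, 166 and 163 in Empty. ERBB2 in the mean of the 3 lines was at a log2 fold change of 0.0055 ± 0.037 (SE, 95% interval -0.073 to 0.084), with all Z2 wells below the Empty wells, all Z9 wells above them and Z5 wells overlapping them.

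ERRFI1, which binds and inhibits the kinase domain of EGFR and is itself induced by EGFR signalling, was the most abundant gene of the list per exon length, with 239.8, 228.2 and 230.4 CPM per kb in Z2, Z5 and Z9 and 279.8 in Empty. Its CPM were 890, 1184 and 937 in Z2, 962, 903 and 1001 in Z5, 829, 987 and 1077 in Z9, and 1148, 1320 and 1046 in Empty. All Z5 wells lay below the Empty wells, while Z2 b and Z9 c exceeded Empty c. The log2 fold changes (± SE) were -0.22 ± 0.12 for Z2, -0.29 ± 0.12 for Z5 and -0.28 ± 0.12 for Z9. ERRFI1 lies on chromosome 1 from 8011727 to 8026309 (GRCh38.p14). The 84 other tested genes within 5 Mb of it had median log2 fold changes of -0.10, -0.055 and -0.028 in Z2, Z5 and Z9, and 23.8% of them were called lower and 4.76% higher in the mean of the 3 lines, beside 12.6% lower and 13.0% higher of all tested genes. The part of this region in the ERRFI1 values was not tested.

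By edgeR adjusted p over all genes, 3 of the 8 tested listed genes passed in Z2 minus Empty (EREG, AREG and TGFA, all higher), where 23.9% of all genes passed and 12.4% were higher. In Z5 it was 2 (EREG and AREG, both higher), where 15.0% of all genes passed and 8.27% were higher. In Z9 it was EREG, AREG and TGFA, all higher, where 19.2% of all genes passed and 9.66% were higher. In the mean of the 3 lines it was again EREG, AREG and TGFA, where 25.6% of all genes passed and 13.0% were higher. EREG and AREG were higher in each of the 3 lines, as were 4.98% of all genes. The choice of EREG used these comparisons, so nothing is read from the counts. The median log2 fold change of the 8 genes was 0.25 in Z2, 0.18 in Z5 and 0.19 in Z9, beside 0.0035, 0.0035 and 0.0084 for all tested genes. BTC and ERBB4 did not pass the filter on low counts.

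**Figure D3:**
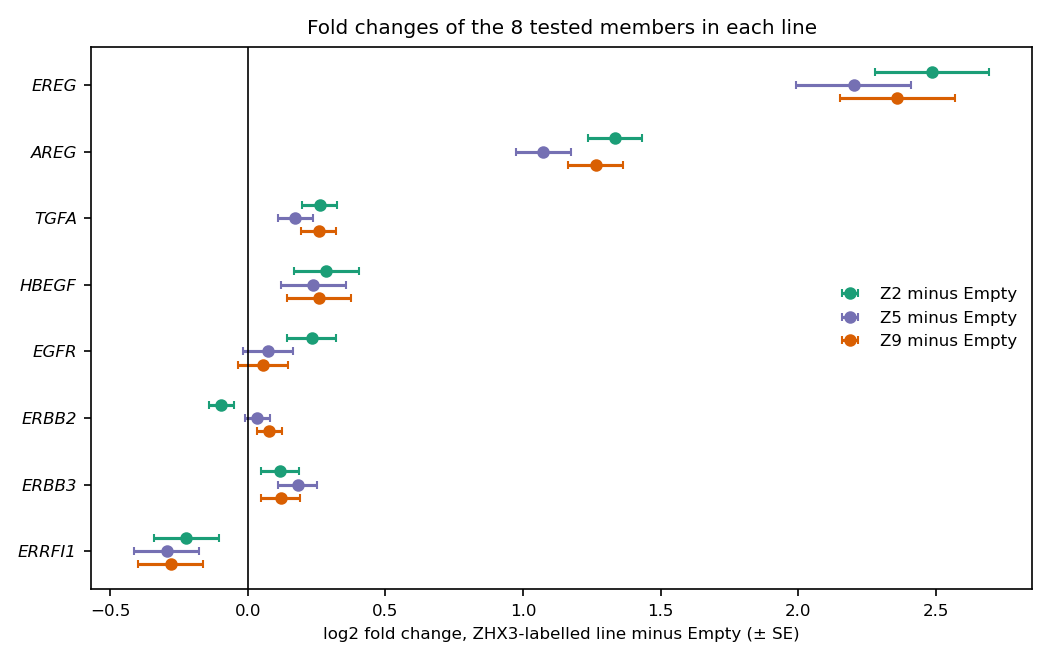
log2 fold changes (x axis, ± SE) of 8 listed genes (y axis) in Z2, Z5 and Z9, each minus Empty. EREG lies between 2.20 and 2.49 and AREG between 1.07 and 1.33, while the other genes lie between -0.29 and 0.28. The 3 comparisons share the Empty wells.

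Differences among the labelled lines were not used in the choice and were tested. Between Z9 and Z2, 1 of 8 genes passed, where 5.17% of all genes did and 1.96% were higher in Z9. ERBB2 was 175.7 ± 2.44 CPM in Z9 and 155.8 ± 3.78 in Z2 (SD, n = 3 each), with every Z9 well above every Z2 well and a log2 fold change of 0.17 ± 0.046 (SE, edgeR adjusted p = 0.0391). With 1 library left out its log2 fold change stayed between 0.15 and 0.19, but it missed the threshold when any of 11 libraries was left out, Z2 a being the exception, and in a fit of Z9 and Z2 alone (adjusted p of 0.00287 to 0.17 over all 18 alternatives, the lowest by DESeq2 and the highest in that fit). EREG differed by -0.13 (95% interval -0.49 to 0.23) between Z9 and Z2 and AREG by -0.070 (-0.27 to 0.13), neither past the threshold (edgeR adjusted p = 0.689 and 0.687).

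Between Z9 and Z5, by edgeR 0 of 8 genes passed, where 1.52% of all genes did, none reached an unadjusted p of 0.05 and 0 were called by DESeq2. EREG differed by 0.16 (95% interval -0.20 to 0.52) and AREG by 0.19 (-0.0086 to 0.39) on the log2 scale. Between Z5 and Z2, by edgeR 0 of 8 genes passed, where 0.00654% of all genes did. DESeq2 called 0 but gave no adjusted p for EREG and HBEGF, so it could not call them. AREG (-0.26, 95% interval -0.46 to -0.061) and ERBB2 (0.13, 0.035 to 0.23) had an unadjusted edgeR p under 0.05 (edgeR adjusted p = 0.434 and 0.427). The EREG difference was -0.29 (-0.65 to 0.077). These intervals do not show that the lines have equal EREG levels.

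Wells within a line also differed in several genes at the same time. In Z2, well b was the highest for 6 of the 8 tested genes (EREG, AREG, HBEGF, TGFA, EGFR and ERRFI1), and in Empty well b was the highest for 5 (EREG, AREG, HBEGF, EGFR and ERRFI1). In Z5 well c was the highest for 6 (AREG, HBEGF, TGFA, EGFR, ERBB2 and ERRFI1) and in Z9 well c for 4 (EREG, AREG, HBEGF and ERRFI1). AREG, HBEGF and ERRFI1 thus peaked in the same well in each of the 4 lines. ERBB3, in contrast, peaked in another well than these in each line. The share of all tested genes that peaked in each well is not given here, so nothing about the list is read from these counts. Z2 b was the well of Z2 least like the others. Its chi-square per degree of freedom was 45.9 against Z2 a and 32.1 against Z2 c, beside 14.8 between Z2 a and Z2 c. Without Z2 b the EREG log2 fold change in Z2 was 2.27 and that of AREG 1.28.

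Proteins that release ligands were listed next. Of 9 tested genes of the list of further ligands and sheddase factors, 3 rose in the mean of the 3 lines and 6 did not pass, with a median log2 fold change of 0.034 beside 0.0029 for all genes. This is 33.3% called, beside 25.6% of all genes (13.0% higher and 12.6% lower). RHBDF2, which encodes iRhom2, a partner that carries ADAM17 to the cell surface, rose to 68.0 CPM in Z2, 62.2 in Z5 and 72.7 in Z9, against 51.3 in Empty (0.40 ± 0.069, SE, edgeR adjusted p = 5.5e-04). RHBDF1, which encodes the related iRhom1 (0.25 ± 0.064, edgeR adjusted p = 0.0075), and the metalloprotease gene ADAM15 (0.20 ± 0.045, edgeR adjusted p = 0.00359) rose as well. The sheddase genes ADAM17 (-0.011) and ADAM10 (0.034) missed the threshold (edgeR adjusted p = 0.877 and 0.596), as did ADAM9 (-0.15, edgeR adjusted p = 0.0539) and the iRhom-binding gene FRMD8 (-0.12, edgeR adjusted p = 0.202). Without Empty a the call of RHBDF1 was lost (edgeR adjusted p = 0.0847).

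Genes of the cascades below the receptors moved by small amounts both ways. Of 27 tested genes, 4 rose, 5 fell and 18 did not pass, with a median of 0.038. This is 33.3% called, beside 25.6% of all genes (13.0% higher and 12.6% lower). MAP2K2, the kinase MEK2, fell to 108, 118 and 124 CPM in Z2, Z5 and Z9, against 144 in Empty (-0.31 ± 0.048, SE, edgeR adjusted p = 1.5e-04). The phosphatase gene PTPN11, which encodes SHP2 (-0.19, edgeR adjusted p = 0.00184), fell as well. The docking protein gene GAB2 (0.35 ± 0.061, edgeR adjusted p = 4.4e-04) and the kinase gene SRC (0.19, edgeR adjusted p = 0.00829) rose. The call of SRC was lost without Empty a (edgeR adjusted p = 0.0749).

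Among inhibitors, ubiquitin ligases and endocytic adaptors, 3 of 23 tested genes rose, 1 fell and 19 did not pass, with a median of 0.0019. This is 17.4% called, beside 25.6% of all genes (13.0% higher and 12.6% lower). PTPRJ, a receptor phosphatase known to act on EGFR, rose to 47.1, 48.4 and 39.9 CPM in Z2, Z5 and Z9, against 26.2 in Empty (0.78 ± 0.078, SE, edgeR adjusted p = 2.3e-06). The endosomal sorting gene TSG101 (0.17, edgeR adjusted p = 0.00964) and the ubiquitin ligase gene CBLB (0.21, edgeR adjusted p = 0.0289) rose, and LRIG3 (-0.30, edgeR adjusted p = 0.00105) fell. The endocytic adaptor gene EPN1 was at 0.12 (edgeR adjusted p = 0.121). TSG101 lost its call without Empty b (edgeR adjusted p = 0.0626), and CBLB lost it without Empty a or c, Z5 b or c, or Z9 b (edgeR adjusted p of 0.15 at most).

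Transcripts known as targets of the ERK cascade did not share a direction. Of 17 tested genes 3 rose, 6 fell and 8 did not pass, with a median of -0.0046. This is 52.9% called, beside 25.6% of all genes (13.0% higher and 12.6% lower). No test of the list as a whole was run. The phosphatase gene DUSP4 rose to 4.46, 4.13 and 3.50 CPM in Z2, Z5 and Z9, against 1.98 in Empty (1.03 ± 0.11, SE, edgeR adjusted p = 3.4e-06). The Sprouty genes SPRY4 (-0.29 ± 0.060, edgeR adjusted p = 0.00184) and SPRY2 (-0.28 ± 0.065, edgeR adjusted p = 0.00471), the early response gene IER3 (-0.46 ± 0.093, edgeR adjusted p = 0.00311) and the ephrin receptor gene EPHA2 (-0.21 ± 0.048, edgeR adjusted p = 0.00317) fell. In the 4 lists together 13 of 76 tested genes rose and 12 fell, which is 32.9% called beside 25.6% of all genes, and without Empty a the count of called genes was 14 instead of 25.

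**Figure D4:**
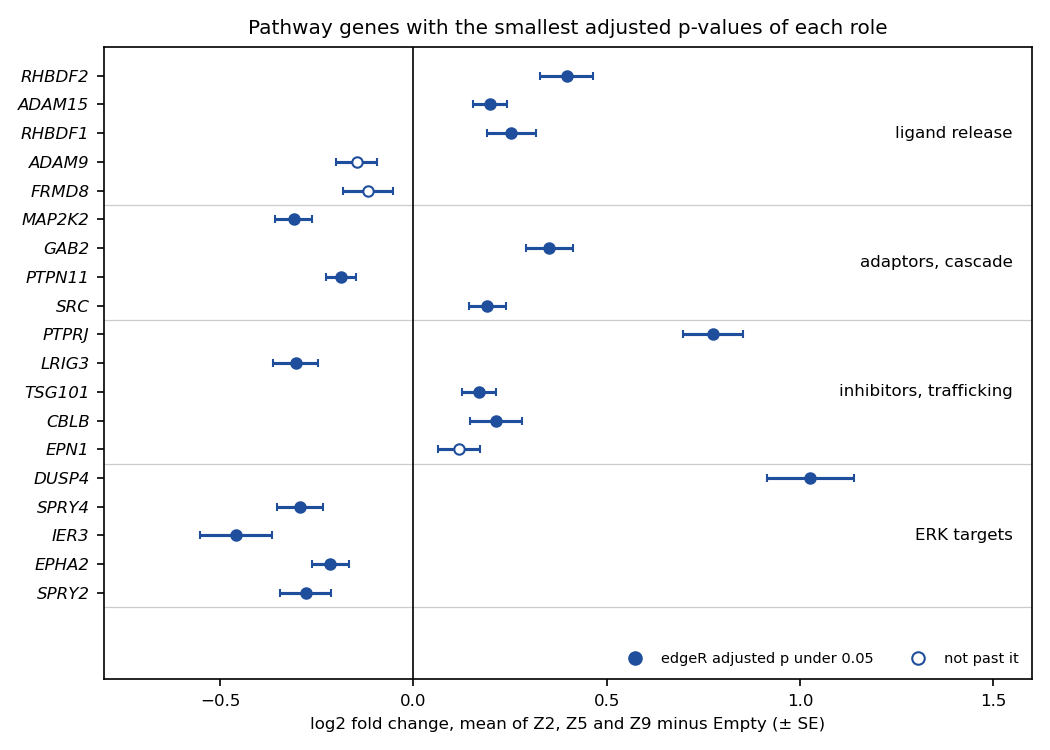
log2 fold changes (x axis, ± SE) of the mean of Z2, Z5 and Z9 minus Empty for the genes named from each of 4 pathway lists by smallest adjusted p (y axis), 4 from the cascade list and 5 from each other list. Filled points passed the edgeR threshold of 0.05 and open points did not. PTPRJ (0.78) and DUSP4 (1.03) stand out, and the other points lie between -0.46 and 0.40.

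Around EREG on chromosome 4, the other tested genes differed in direction. The 37 other tested genes within 5 Mb of EREG had median log2 fold changes of 0.063, 0.0051 and -0.058 in Z2, Z5 and Z9. In the mean of the 3 lines 24.3% of them were called higher and 16.2% lower, beside 13.0% and 12.6% of all tested genes. The part of this region in the EREG values was not tested. Of 19 protein-coding genes within 1 Mb of EREG, 8 were tested, EREG and AREG among them. MTHFD2L, a mitochondrial folate enzyme gene next to EPGN, rose to 7.35, 7.70 and 6.89 CPM in Z2, Z5 and Z9, against 5.63 in Empty (0.38 ± 0.073, SE, edgeR adjusted p = 0.00108). RASSF6 had 43, 25 and 74 counts over the wells of Z2, Z5 and Z9 and 8 over those of Empty, and no test of it is given because it passed the filter on low counts only through labelled wells. ALB fell (-0.59, edgeR adjusted p = 3.1e-07), whereas AFP (0.061), AFM (-0.33) and the chemokine gene CXCL8 (-0.27) missed the threshold (edgeR adjusted p = 0.476, 0.311 and 0.245). The chemokine genes CXCL1, CXCL2, CXCL3 and CXCL5 and the gene PARM1 had at most 18 counts over the wells of a line, and CXCL6, PF4, PF4V1 and PPBP had 0 in all wells.

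Over the 12 libraries, log2 CPM of EREG was most like that of AHR, the ligand-activated aryl hydrocarbon receptor (Pearson r = 0.992), TIMP3, a metalloprotease inhibitor (0.990), CD24 (0.989), the transcription factor gene ETS1 (0.988) and the protease inhibitor gene SERPINE2 (0.985), among 11022 protein-coding genes. AHR, for example, was at 77.3 ± 9.19 CPM in Z2, 72.3 ± 3.02 in Z5, 74.6 ± 7.19 in Z9 and 39.5 ± 4.75 in Empty (SD, n = 3 each). AREG ranked 14th by this measure (0.977), TGFA 200th (0.900) and HBEGF 1062nd (0.719), and ERRFI1 had a negative value (-0.473). These values describe 12 libraries of 4 lines and are set mainly by the gap between Empty and the rest. ETS1 was at 3.42, 3.00 and 2.99 CPM in Z2, Z5 and Z9 and 0.913 in Empty. It reached the required mean of at least 1 log2 CPM only through labelled wells. Over the 9 libraries of Z2, Z5 and Z9 alone, the most similar were ZNF800 (0.960), DNTTIP2 (0.951) and WDR47 (0.941), none of them past the threshold against Empty (edgeR adjusted p = 0.116, 0.792 and 0.578). Within these 9 libraries ERRFI1 (0.810, ranked 220th of 11022), TGFA (0.746, 536th) and HBEGF (0.714, 728th) were more like EREG than AREG was (0.662, 1063rd). EREG was at 4.38 CPM in Z2 b and 3.85 in Z9 c, and between 2.75 and 3.06 in the other labelled wells. The 9-library values thus depend strongly on Z2 b, the well of Z2 least like the others, and on Z9 c.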

How the data were processed

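The authors deposited whole-number read counts per gene symbol for 12 libraries. Per the labels' protocols, total RNA was purified on columns (NucleoSpin) and cDNA libraries came from a NEBNext Ultra II kit. The submitters' processing notes name hg38, STAR and featureCounts. The version of each tool, the annotation, the strand setting and the rule for multi-mapping reads is not given in the sources used here. Hence reads of overlapping or antisense genes cannot be told apart. Samples were grouped by title. Chi-square per degree of freedom between wells of the same line ran from 6.31 to 45.9, so no library was treated as a repeat of another.

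The test was edgeR 4.0.16 under R 4.3.3 (filterByExpr with line as group, TMM, robust quasi-likelihood fit of 4 group means to all libraries, 8 residual degrees of freedom, Benjamini-Hochberg adjustment over 15289 genes, threshold 0.05). The Z9 minus Z2 test alone was checked on simulated counts, with changes placed in Z9 only, and the outcome is not given here. Comparisons with Empty were not checked in this way. Each SE was obtained as log2 fold change over the square root of F. Levels are CPM on TMM-scaled totals, and per length they use union exons of GENCODE 29. For likeness, log2 CPM used a prior count of 2 and genes with a mean of at least 1. Positions and promoters are from RefSeq on GRCh38.p14. Named genes were the 10 members, ZHX3, the 5 smallest adjusted p-values of each pathway list, further ligands of the family, neighbours of EREG within 1 Mb, and the 5 and 3 genes most like EREG over 12 and 9 libraries. Of the genes this rule names, 1 is not reported here. ADAM10 and ADAM17 were named after their values were seen. The members, lists and rules were chosen with earlier results of these data known. Alternatives were DESeq2 1.42.0 size factors and Wald test, other filters, a replicate block, fits of the compared groups, summed wells and each library left out.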

Additional observations from a re-analysis of the deposited data

Results flagged for a closer look

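ERBB2 passed the test of the difference between Z9 and Z2. Its log2 difference between Z9 and Z2 was 0.1733, from 175.7 CPM in Z9 and 155.8 CPM in Z2 (edgeR adjusted p = 0.0391), higher in 3 of 3 Z9 wells than in any Z2 well. The call was kept under 6 of 18 alternatives and lost in a fit of Z9 and Z2 alone (edgeR adjusted p = 0.17) and with any of 11 libraries left out. The 180 other tested genes within 5 Mb of ERBB2 had median log2 fold changes against Empty of 0.038 in Z9 and -0.020 in Z2. The part of these in the ERBB2 difference was not tested.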

How the results depend on the processing

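Over 18 alternatives the log2 fold change in the mean of the 3 lines ran from 2.21 to 2.47 for EREG, on which the genes were chosen, and from 1.16 to 1.32 for AREG. TGFA lost its call there with wells summed and lines as units (2 members called). The count of members called in the mean of the 3 lines was 5 instead of 3 with DESeq2 and 5 with the replicate block, where HBEGF and ERRFI1 were added, and 3 to 5 with 1 library left out (5 without Z2 b). It was 3 to 5 in Z2 (5 without Z2 a), 2 to 3 in Z5 and 3 in Z9 with 1 library left out, and 5 instead of 2 for Z5 in a fit of Z5 and Empty alone. Between Z9 and Z2 it was 0 in a fit of these lines alone and 0 to 1 with 1 library left out. Called pathway genes numbered 5 instead of 25 with lines as units (RHBDF2, GAB2, PTPRJ, DUSP4 and IER3) and 14 to 29 with 1 library left out (14 without Empty a). With lines as units the lone Empty line is assumed to vary like the other lines. Wells of the same letter correlated weakly across lines (5 of 18 same-letter correlations were over 0.1, range -0.101 to 0.173). Those between a wells were all positive (0.0388 to 0.173), and those between b wells or between c wells had both signs. Whether the letters pair the wells was not tested further, and the main test used no pairing. The mean of the 3 lines uses all groups, so no fit of fewer groups was run for it. The cause of these changes was not tested. EREG rests on 32 to 41 counts in each Empty well, and BTC and ERBB4 are below what this depth can compare.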
